A study of Mus musculus with 8 samples.

Results

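The transcripts of 9 histone deacetylase, chromatin remodeler and histone methyltransferase genes were followed through oligodendrocyte (OL) differentiation: *Hdac1*, *Hdac2*, *Hdac3*, *Hdac11*, *Smarca4*, *Chd7*, *Chd8*, *Ezh2* and *Prmt5*. They were chosen by symbol, 9 of the 23427 genes in the deposited table. All 9 passed the filter on low values, which asked for 1 FPKM or more in 2 or more libraries. The samples were wild-type C57BL/6J mouse oligodendrocyte precursor cells (OPCs), purified from the cortex of pooled postnatal pups by capture on an antibody against PDGFRα after microglia and endothelial cells had been panned away. Day 0 is the culture with PDGF-AA, and Day 1, Day 2 and Day 3 count the days after this mitogen was withdrawn and the thyroid hormone T3 was added. Each of the 4 days had 2 libraries, 8 in all, and the paper calls the replicates of the culture independent. For the growth medium the labels name serum, and the paper's methods name PDGF-AA and CNTF. FPKM counts fragments relative to transcript length and to the mapped fragments of a library. Levels of different genes are compared here on this scale, and the transcript lengths behind it are not given in the sources used. Where the cultures of a day shared cells, the p-values below measure only the spread between these libraries.

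Histone deacetylases remove acetyl groups from histone tails, and *Hdac1*, *Hdac2* and *Hdac3* encode the class I enzymes that work inside corepressor complexes. Remodelers such as BRG1 (the product of *Smarca4*), CHD7 and CHD8 use ATP to move nucleosomes, EZH2 places the repressive methyl mark of the Polycomb complex PRC2, and PRMT5 methylates arginines of histones and splicing proteins. In the OL lineage, deacetylation by HDAC1 and HDAC2 is known to be needed for progenitors to mature, BRG1 and CHD7 are known to act with the lineage factors OLIG2 and SOX10, and EZH2 is known from dividing progenitors. These are background facts and not results of these libraries.

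The cultures carried the marks of the labelled course. All 10 proliferation markers and all 4 genes listed for OPCs were lower at Day 3 than at Day 0 (limma, adjusted p under 0.05). All 6 OL markers were higher by the same test. After median ratio scaling 3 rather than 4 of the OPC list passed, without *Gpr17* (-0.47, limma adjusted p = 0.0983). *Gpr17* rose before it fell, unlike the rest of that list. It was at 232 and 279 FPKM at Day 0, 454 and 449 at Day 1 and 185 and 116 at Day 3. The 5 microglial and the 5 endothelial and mural markers summed to at most 0.767 FPKM in any library, with *Aif1*, *Cx3cr1*, *Csf1r*, *C1qa*, *Cldn5* and *Rgs5* listed at 0 in all 8. The 2 replicate series stood apart in astrocyte genes. The 5 astrocyte markers (*Gfap*, *Aqp4*, *Aldh1l1*, *Slc1a2* and *Slc1a3*) summed to 50.0 to 78.3 FPKM in the 4 libraries of replicate 1 and to 257 to 786 FPKM in those of replicate 2, while the 5 neuronal markers, mostly *Tubb3*, summed to 64.4 to 233 and 31.4 to 115 FPKM. In replicate 1 the astrocyte sums were 62.8, 50.0, 50.2 and 78.3 FPKM over the 4 days in order. In replicate 2 they were 257, 392, 523 and 786 FPKM, higher on each later day. From Day 0 to Day 3, limma called 0 of the 5 astrocyte markers, 0 also at an unadjusted p under 0.05. With the replicate block limma called 2 higher, *Gfap* (adjusted p = 1.26e-04) and *Aqp4* (adjusted p = 7.35e-04). *Gfap* went from 14.7 to 45.5 FPKM in replicate 1 and from 154 to 603 in replicate 2. Of 3 tested neuronal markers limma called 1, *Tubb3*, which was higher (with the replicate block *Snap25* was also called, lower). Both replicates are given for each of the 9 genes, and the part of these other cells in the results was not tested. In bulk RNA, fewer cells of a type and less RNA per cell cannot be told apart. The steps between low FPKM values gave a depth of about 950000 to 1520000 fragments per library, lowest at Day 3.

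From Day 0 to Day 3, 6 of the 9 genes fell, 1 rose and 2 did not pass the test (limma on log2(FPKM + 1), adjusted p under 0.05 over 12208 genes). Among all genes tested, 26.3% were called lower and 12% higher, 38.2% in all. The genes that fell were *Prmt5*, *Ezh2*, *Chd7*, *Hdac3*, *Hdac2* and *Smarca4*, and the gene that rose was *Hdac11*. *Hdac1* and *Chd8* did not pass. The Day 0 and Day 3 libraries did not overlap for any of the 9 genes, a state shared by 48.6% of all genes in the lower and 22.8% in the higher direction. The median log2 fold change was -0.88 over the 9 genes and -0.31 over all genes tested. Rescaling the libraries by median ratios brought the median of all genes to -0.04, and again 6 of the 9 were called lower and 1 higher. Of all 12208 genes, 2047 were then called lower and 2135 higher. The replicate block, a term for the replicate number, also gave 6 lower and 1 higher, with 3551 lower and 1617 higher among all genes.

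**Figure D1:**
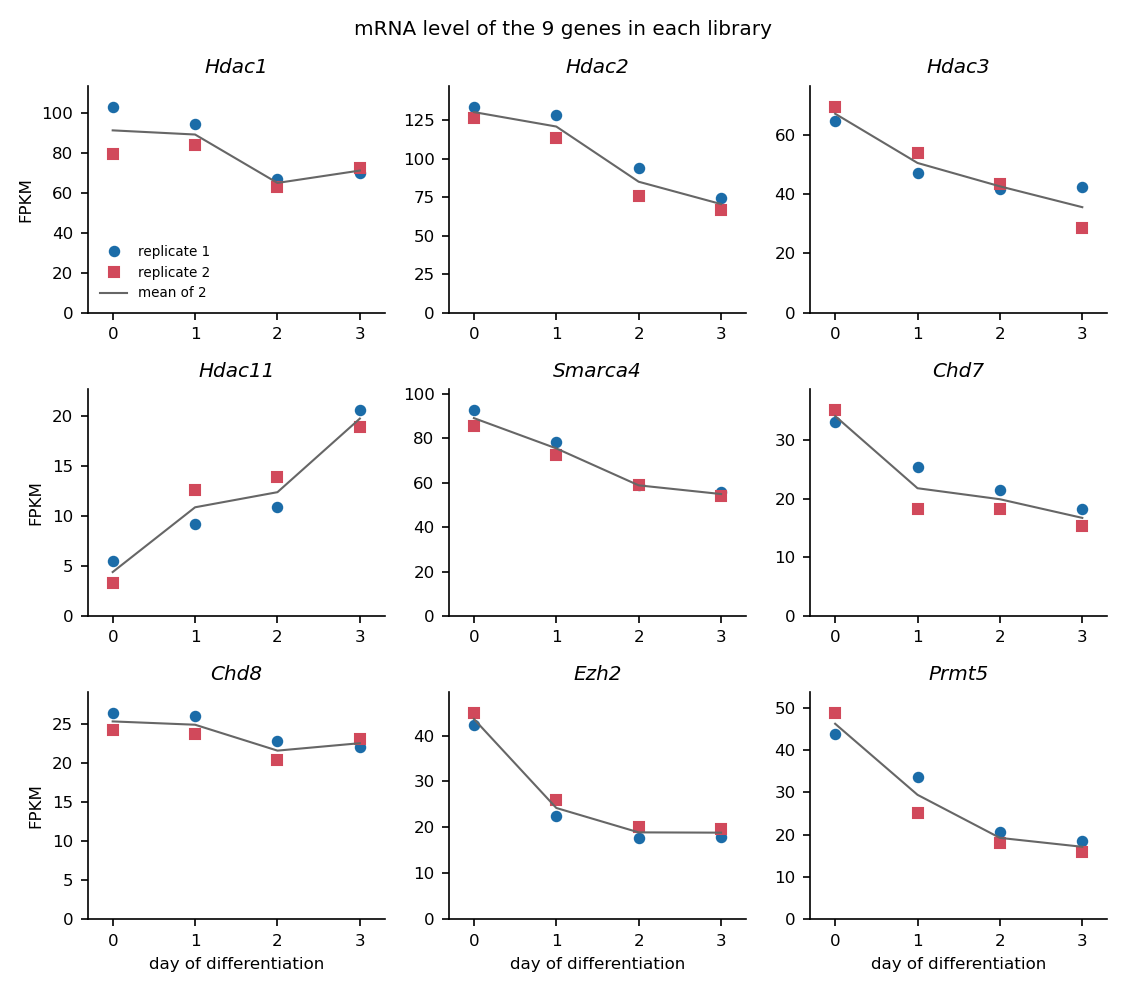
FPKM (vertical axis, from 0) of each of the 9 genes by day of differentiation (horizontal axis). Circles are replicate 1, squares replicate 2, and the line joins the means of the 2 libraries. *Hdac11* climbs from 4.38 to 19.7 FPKM while the means of *Prmt5* and *Ezh2* drop to 19.2 and 18.9 FPKM by Day 2.

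Among the deacetylases, *Hdac2* had the highest FPKM of the 9 genes at Day 0. *Hdac2* (chromosome 10, 36974544 to 37001889, plus strand, GRCm38) was at 134 and 127 FPKM at Day 0 (replicate 1 and replicate 2), 129 and 114 at Day 1, 94.2 and 76.1 at Day 2 and 74.6 and 66.7 at Day 3. Both Day 2 libraries lay below both Day 1 libraries, and Day 0 and Day 1 overlapped. By Day 3 the mean had fallen to 54.1% of that at Day 0 (-0.88 in log2, SE 0.15, limma adjusted p = 0.00244). Of this change in log2(FPKM + 1), 12.4% had been made by Day 1 and 70.3% by Day 2.

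*Hdac1*, the close paralog of *Hdac2* and its partner in the NuRD, Sin3 and CoREST corepressors, is on chromosome 4 (129516104 to 129542713, minus strand). It stood at 103 and 79.4 FPKM at Day 0, then 94.3 and 84.1 at Day 1, 67.1 and 62.9 at Day 2 and 69.8 and 72.6 at Day 3. The Day 0 libraries were wide apart and spanned the Day 1 values, while all 4 later libraries lay below all 4 earlier ones. Over the 3 days it changed by -0.34 in log2 (SE 0.15, 95% interval -0.70 to 0.01), short of the threshold (limma, adjusted p = 0.112, or 0.0874 under the replicate block). It was -0.53 without Day 0 replicate 2, -0.16 without Day 0 replicate 1 and -0.03 after median ratio scaling.

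The ratio of *Hdac1* to *Hdac2* within a library does not depend on the scaling between libraries. It was 0.770 and 0.626 at Day 0, 0.734 and 0.741 at Day 1, 0.712 and 0.826 at Day 2 and 0.936 and 1.09 at Day 3. Both Day 3 ratios were above all 6 earlier ones. The FPKM of *Hdac2* thus went from above that of *Hdac1* to a level that overlapped it. This is a description of the ratio and was not tested.

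*Hdac3*, whose product is a class I enzyme that works in a corepressor complex of its own, is on chromosome 18 (37935844 to 37955016, minus strand). It had 64.7 and 69.5 FPKM at Day 0, then 47.2 and 53.8 at Day 1, 41.8 and 43.5 at Day 2 and 42.5 and 28.6 at Day 3. Replicate 1 was at its Day 3 level by Day 2, and replicate 2 went on falling in the last step, so that the log2 change over the 3 days was -0.59 in replicate 1 and -1.25 in replicate 2. The fall from Day 0 to Day 3 was to 53.0% (-0.92 in log2, SE 0.19, limma adjusted p = 0.00634). The call was lost without Day 0 replicate 2 (-0.87, limma adjusted p = 0.0502), the only library whose removal changed the call of a member in this comparison.

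*Hdac11* was the only gene of the 9 to rise. It encodes the single class IV enzyme, a small deacetylase that also removes fatty acyl groups from proteins, and lies on the plus strand of chromosome 6 (91156665 to 91174692). It was at 5.49 and 3.27 FPKM at Day 0, then 9.15 and 12.5 at Day 1, 10.9 and 13.9 at Day 2 and 20.6 and 18.8 at Day 3. Day 0 lay below every later library and Day 3 above every earlier one, while Day 1 and Day 2 overlapped. The mean at Day 3 was 450.1% of the Day 0 mean, with a log2 fold change of 1.98 (SE 0.27, limma adjusted p = 0.00101), above that of 96.9% of all genes tested. The change was 1.73 in replicate 1 and 2.22 in replicate 2.

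*Hdac11* was also the gene with the fewest fragments. With the depths above and its longest coding transcript (2653 nt), its FPKM stands for about 22 and 11 fragments at Day 0, 30 and 42 at Day 1, 35 and 49 at Day 2 and 59 and 47 at Day 3. Counting error alone is then about 30.2% at the lowest value and 13.0% at the highest. With its shortest coding transcript (536 nt), *Hdac11* would have about 4 and 2 fragments at Day 0 and 12 and 10 at Day 3. The counting error would then be larger. Of its exonic bases, 15.4% lie opposite the annotated gene *Gm44002* and 2.49% opposite *Gm14573*. Whether fragments were counted by strand is not given in the sources used here, so a share of the *Hdac11* fragments could belong to these genes.

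*Hdac11* passed the threshold already from Day 0 to Day 1 (1.16 in log2, SE 0.27, limma adjusted p = 0.0285). The step from Day 1 to Day 2 was 0.18 (adjusted p = 0.738) and that from Day 2 to Day 3 was 0.64 (adjusted p = 0.339), and neither passed. The first step lost the call without Day 0 replicate 2 (0.85, adjusted p = 0.187), without Day 1 replicate 2 (0.95, adjusted p = 0.171) and in a fit of only these days (1.16, adjusted p = 0.106), all from limma.

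**Figure D2:**
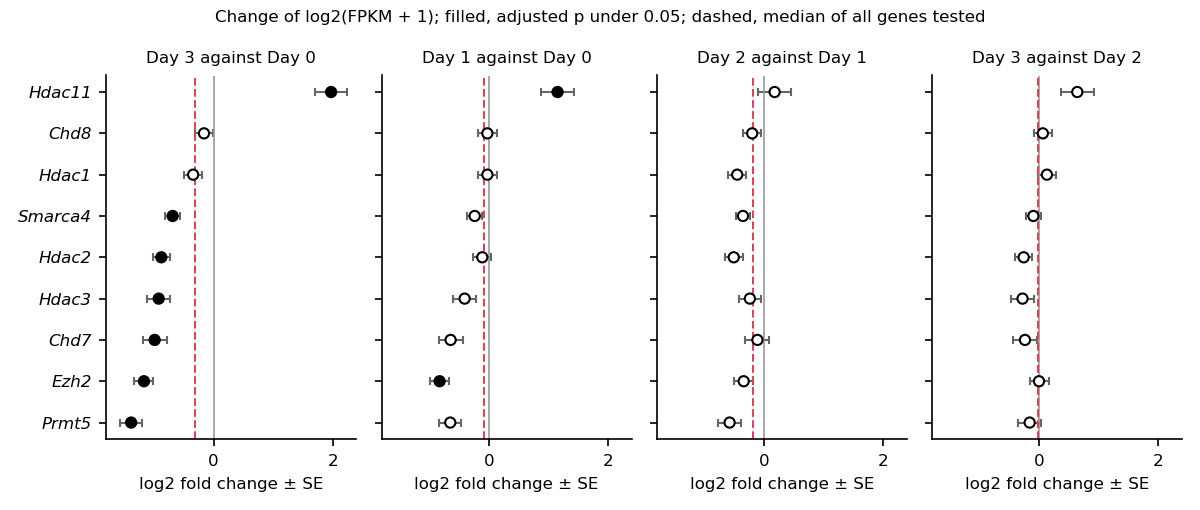
Log2 fold change of FPKM + 1 (horizontal axis) with its SE for the 9 genes (vertical axis, ordered by the change from Day 0 to Day 3) in 4 comparisons of days. Filled points passed an adjusted p under 0.05 in limma, and the dashed line is the median of all 12208 genes. Over the 3 days 7 points are filled, in the first step only *Hdac11* and *Ezh2*, and in the later steps none.

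Among the remodelers, *Smarca4* fell steadily and tightly between replicates. Its product BRG1 is the ATPase of the BAF complex, and the gene lies on the plus strand of chromosome 9 (21616169 to 21704230). It was at 92.9 and 85.4 FPKM at Day 0, then 78.6 and 72.4 at Day 1, 58.9 and 58.8 at Day 2 and 55.8 and 54.1 at Day 3. The days did not overlap and followed each other in order. The mean at Day 3 was 61.6% of that at Day 0 (-0.69 in log2, SE 0.12, limma adjusted p = 0.00322), which is -0.37 relative to the median of all genes. After median ratio scaling its log2 fold change was -0.37 (adjusted p = 0.0437).

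*Smarca2*, which encodes the alternative BAF ATPase BRM, was lower throughout, with a mean of 31.6 ± 5.34 FPKM at Day 0 and 17.7 ± 0.918 at Day 3 (SD, n = 2). It fell as well (-0.79 in log2, SE 0.22, limma adjusted p = 0.0224), but not past the threshold after median ratio scaling (-0.49, adjusted p = 0.0997). The ratio of *Smarca4* to *Smarca2* ranged from 2.63 to 4.18 over the 8 libraries, and the Day 0 ratios (2.63 and 3.07) overlapped those of Day 3 (3.04 and 3.17).

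The CHD remodelers parted. *Chd7*, on the plus strand of chromosome 4 (8690406 to 8867659), was at 33.0 and 35.1 FPKM at Day 0, then 25.4 and 18.1 at Day 1, 21.5 and 18.3 at Day 2 and 18.2 and 15.3 at Day 3. Both Day 0 libraries stood above the 6 later ones, which overlapped between neighbouring days except for Day 2 and Day 3. The mean fell to 49.0% (-0.99 in log2, SE 0.20, limma adjusted p = 0.00602), with 64.8% of the change in log2(FPKM + 1) made by Day 1. In that first step the log2 fold change was -0.64, which missed the threshold (limma adjusted p = 0.0778) and passed it with the replicate block (adjusted p = 0.0494).

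*Chd8*, on the minus strand of chromosome 14 (52198151 to 52257780), stayed within 20.4 to 26.4 FPKM in all 8 libraries. It had 26.4 and 24.3 FPKM at Day 0, then 26.1 and 23.8 at Day 1, 22.9 and 20.4 at Day 2 and 22.1 and 23.1 at Day 3. Over the 3 days its log2 value changed by -0.16 (SE 0.15, 95% interval -0.52 to 0.19, limma adjusted p = 0.442), and its sign turned to 0.14 after median ratio scaling and to 0.03 after quantile normalization. Its exons lie opposite the antisense gene *Gm26590* over 5.77% of their bases.

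In FPKM, *Chd7* therefore exceeded *Chd8* at Day 0 and lay below it at the end. The ratio of *Chd7* to *Chd8* was 1.25 and 1.45 at Day 0, 0.973 and 0.763 at Day 1, 0.940 and 0.899 at Day 2 and 0.823 and 0.661 at Day 3. The ratio was over 1 in both Day 0 libraries and under 1 in the other 6. No test was made of it.

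**Figure D3:**
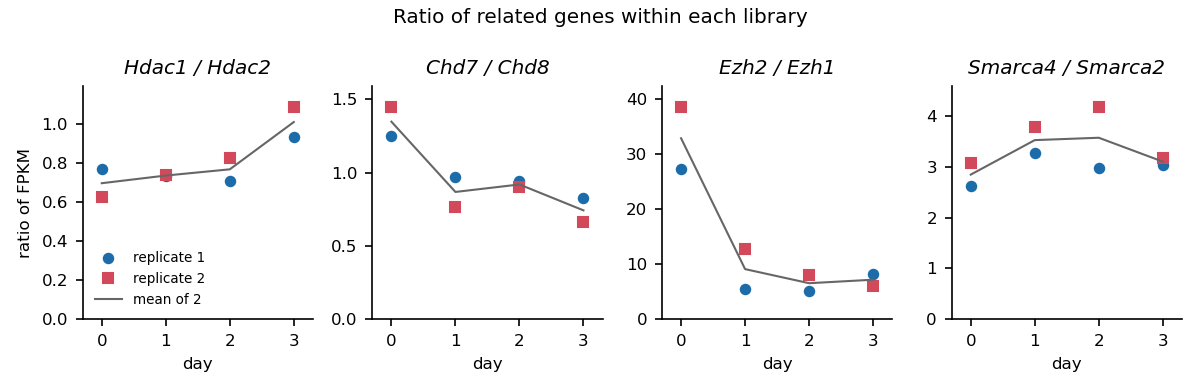
Ratio of FPKM within each library (vertical axis, from 0) for 4 pairs of related genes by day (horizontal axis). Circles are replicate 1, squares replicate 2, and lines join the means. *Hdac1* to *Hdac2* rises to a mean of 1.01 at Day 3, *Chd7* to *Chd8* falls from 1.35 to 0.742, and *Ezh2* to *Ezh1* drops from 32.9 to 7.16. *Ezh1* had a mean of only 1.36 FPKM at Day 0, close to the filter of 1 FPKM, so this last ratio is imprecise.

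*Ezh2* was the member called lower in the first step. It is on the minus strand of chromosome 6 (47530139 to 47595341) and encodes the catalytic subunit of PRC2. It was at 42.3 and 44.9 FPKM at Day 0, then 22.5 and 26.0 at Day 1, 17.7 and 20.1 at Day 2 and 18.0 and 19.7 at Day 3. Each Day 0 library was well above all later ones, and Day 2 and Day 3 overlapped. Mean FPKM at Day 1 was 55.5% of that at Day 0 (-0.83 in log2, SE 0.16, limma adjusted p = 0.0122). On Day 3 it was 43.2% (-1.17, SE 0.16, limma adjusted p = 9.09e-04). By Day 1, 70.6% of the whole change in log2(FPKM + 1) had been made, and by Day 2 it was 99.7%. The last step was not distinguishable from 0 (95% interval -0.37 to 0.36). Within replicate 1 the first step was -0.88 for *Ezh2*, -0.37 for *Chd7* and -0.37 for *Prmt5*, and within replicate 2 it was -0.77, -0.92 and -0.93, so the order of these genes differed between the replicates.

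The call of *Ezh2* in the first step was lost without Day 0 replicate 1 (-0.87, limma adjusted p = 0.0745), without Day 0 replicate 2 (-0.78, adjusted p = 0.1004) and without Day 1 replicate 1 (-0.73, adjusted p = 0.0641), while the log2 fold change itself kept within -0.93 and -0.73 over the 8 fits that leave out 1 library. The proliferation markers moved with this step. The 10 genes (*Mki67*, *Top2a*, *Ccnb1*, *Ccna2*, *Cdk1*, *Birc5*, *Ube2c*, *Pcna*, *Mcm2* and *Mcm6*) summed to 1420 and 1155 FPKM at Day 0 and to 64.2 to 126 FPKM in the 6 later libraries, a far deeper drop than that of *Ezh2*. Their part in the fall of *Ezh2* was not tested.

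*Ezh1*, the paralog that forms PRC2 in cells that no longer divide, was low on every day. It had means of 1.36 ± 0.275, 3.07 ± 1.44, 3.02 ± 0.719 and 2.71 ± 0.742 FPKM over the 4 days in order (SD, n = 2). A log2 fold change of 0.64 was short of the threshold (limma adjusted p = 0.196), and passed it after quantile normalization (1.06, limma adjusted p = 0.0443). *Ezh2* stayed above *Ezh1* in each of the 8 libraries, by 27.2 and 38.5 times at Day 0 and by 8.23 and 6.08 times at Day 3.

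*Prmt5* made the largest fall of the 9 genes over the 3 days. The gene is on chromosome 14 (54507187 to 54517525, minus strand), and its enzyme places symmetric methyl groups on arginine. It was at 43.7 and 48.8 FPKM at Day 0, then 33.6 and 25.2 at Day 1, 20.5 and 17.9 at Day 2 and 18.4 and 15.8 at Day 3. The first 3 days did not overlap, and the last 2 did. The mean fell to 37.0% of that at Day 0 (-1.38 in log2, SE 0.19, limma adjusted p = 8.90e-04). The first step of -0.65 missed the threshold (limma adjusted p = 0.0600) and passed with the replicate block (adjusted p = 0.0442). *Wdr77*, the gene of the WD repeat partner that PRMT5 needs for activity, fell too, from 26.1 ± 3.24 to 13.0 ± 1.56 FPKM (SD, n = 2), a change in log2 of -0.96 (SE 0.18, limma adjusted p = 0.00392).

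Promoter sequence was at hand for 6 of the 9 genes (RefSeq, GRCm38.p6, 300 bases across the start site): *Hdac2*, *Hdac11*, *Smarca4*, *Chd8*, *Ezh2* and *Prmt5*. All were richer in CG dinucleotides, 16 to 36 of them in 300 bases, than the median of all promoters, which was 7. Matches to the E2F motif and the CCAAT box, which many promoters of cell cycle genes hold, are shown for the 2 genes that fell most, with the gene that rose and *Chd8* beside them. The E2F motif (TTTCCCGC, TTTGGCGC, TTTGGCGG or TTTCGCGC, either strand) was in 1 of the 6, *Ezh2*, and in 2.37% of all 32851 promoters. The CCAAT box (CCAAT or ATTGG, bound by NF-Y) was in 4 of the 6 and in 37.4% of all. *Ezh2* had 3 and *Prmt5* 4 of these boxes, numbers reached by 3.37% and 1.06% of all promoters, a count made after they had been seen. *Hdac11* and *Chd8* had 1 each. The lines below run 5′ to 3′ on the strand of the gene, with the motif in capitals. Not every CCAAT box of *Ezh2* and *Prmt5* is printed.
*Ezh2*, E2F motif, chr6:47595009-47595038, minus strand: gggttgctgcgTTTGGCGCtcggtccggtc
*Ezh2*, CCAAT box, chr6:47595078-47595107, minus strand: cctctcgcatcctCCAATcggagaggcgct
*Ezh2*, CCAAT box, chr6:47595104-47595133, minus strand: gttcggccctctgATTGGacgggcgccctc
*Prmt5*, CCAAT box, chr14:54517557-54517586, minus strand: ttgctgagcgacaCCAATgagagtctgtca
*Prmt5*, CCAAT box, chr14:54517500-54517529, minus strand: gtgagaattgcggATTGGtgggagcagcgg
*Hdac11*, CCAAT box, chr6:91156652-91156681, plus strand: caggcggcactccATTGGgtgcttctcctt
*Chd8*, CCAAT box, chr14:52257819-52257848, minus strand: ctccggccacgccATTGGtagatggagggc
The E2F match of *Ezh2* begins 3 bases after the RefSeq start site used for this window. The GENCODE span of *Ezh2* given above begins upstream of that site, at 47595341 on the minus strand. A match describes the letters only. Of the other motifs searched on both strands, the NRF1 motif was in *Ezh2* and *Smarca4* and in 4.6% of all promoters, GGGCGG (SP1) in 4 of the 6 and 35.7%, and CCGGAAG (ETS) in *Chd8* and 8.86%. TTTGAA or TTCGAA (CHR, in 19.2% of all), AAGATGGC (YY1, 2.75%) and CACGTG (E-box, 7.15%) were in none of the 6 windows.

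In the first step as a whole, 1 of the 9 genes was called higher and 1 lower, against 5.04% and 7.56% of all genes (12.6% in all). With the replicate block these were 1 and 3. In the steps from Day 1 to Day 2 and from Day 2 to Day 3 limma called 0 of the 9, where 3.89% (2.16% higher, 1.73% lower) and 0.295% (0.246% higher, 0.0491% lower) of all genes were called. At an unadjusted p under 0.05, 1 member was higher and 3 lower in the first step (10.7% and 16.1% of all genes). In the middle step 0 were higher and 4 lower (*Hdac1*, *Hdac2*, *Smarca4* and *Prmt5*, against 6.6% and 15.2% of all genes), and in the last 1 was higher (*Hdac11*) and 0 lower (6.95% and 7.57%). The libraries of neighbouring days did not overlap for 5 members in the lower and 1 in the higher direction in the first step (33.4% and 24.3% of all genes), 7 and 0 in the middle step (37.6% and 15.4%) and 3 and 2 in the last (21.8% and 21.1%). A difference among any of the 4 days was called for 7 of the 9 genes by limma's F test, which called 35.2% of all genes. After median ratio scaling 4 were called (*Hdac2*, *Hdac11*, *Ezh2* and *Prmt5*), and the same 4 without Day 0 replicate 1.

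The order of levels changed with these courses. On Day 0 the means ran from *Hdac2* (130 FPKM) through *Hdac1* (91.3), *Smarca4* (89.2), *Hdac3* (67.1), *Prmt5* (46.2), *Ezh2* (43.6), *Chd7* (34.1) and *Chd8* (25.4) to *Hdac11* (4.38), where the replicates of *Hdac1* and *Smarca4* and those of *Prmt5* and *Ezh2* overlapped. On Day 3, *Hdac1* (71.2 FPKM) and *Hdac2* (70.6) were level within their spread, followed by *Smarca4* (54.9), *Hdac3* (35.6) and *Chd8* (22.6). *Hdac11* (19.7), *Ezh2* (18.8), *Prmt5* (17.1) and *Chd7* (16.7) came last, and each of these overlapped its neighbour. *Hdac11*, the lowest of the 9 in both Day 0 libraries, overlapped *Ezh2* at Day 3 and lay above *Prmt5* and *Chd7* in both libraries.

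The complexes in which the 9 proteins work were counted next, from Day 0 to Day 3 by limma over all genes. The counts below are to be read beside all 12208 genes tested, of which 26.3% were called lower and 12% higher. After median ratio scaling 2047 of them were called lower and 2135 higher, and after quantile normalization 2194 and 2071. Of the other PRC2 genes, 6 of 8 fell and 0 rose, with a median log2 fold change of -0.76 against -0.31 for all genes. *Suz12*, a core subunit, fell from 28.0 ± 4.53 to 11.4 ± 2.78 FPKM (SD, n = 2; log2 fold change -1.23, limma adjusted p = 0.00280). *Phf19* (-1.52) and *Phf1* (-2.10), accessory subunits, and *Eed* (-0.78, limma adjusted p = 0.0407) fell as well. The call of *Eed* was lost after same sum, median ratio and quantile scaling (limma adjusted p = 0.0914, 0.187 and 0.183). *Phf1* averaged 4.09 FPKM and *Phf19* 7.03 FPKM at Day 0 and both were under 2 FPKM at Day 3. After median ratio scaling 3 of the 8 were called lower and 0 higher, and after quantile normalization 3 and 1. The demethylase genes that oppose EZH2, *Kdm6a* and *Kdm6b*, did not pass (log2 fold changes 0.37 and -0.0044, median 0.18), although *Kdm6a* did after median ratio scaling (0.65, limma adjusted p = 0.0379).

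Of the 24 other genes of BAF and the related PBAF complex, 14 fell and 0 rose (median -0.55). *Dpf1* (-2.30), *Bcl7c* (-1.79), *Smarcc1* (-1.60) and *Smarcd3* (-1.36) had the largest falls. The fall of *Bcl7c* was uncertain, with 10.2 and 1.44 FPKM at Day 3 (SE 0.61, limma adjusted p = 0.0492). Its call was lost after same sum, median ratio and quantile scaling (limma adjusted p = 0.0672, 0.0925 and 0.0894). *Smarcc1*, a scaffold subunit, went from 62.7 ± 3.91 to 20.1 ± 1.32 FPKM (SD, n = 2; limma adjusted p = 2.19e-04). After median ratio scaling 5 were called lower and 1 higher. The ARID subunit genes *Arid1a*, *Arid1b* and *Arid2* did not pass (-0.22, -0.075 and -0.14, all above 0 after median ratio scaling).

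Partners of the class I deacetylases moved both ways. In the NuRD list 5 of 11 tested genes fell and 1 rose (median -0.37). *Rbbp7* (-1.31), a histone-binding subunit that PRC2 shares, *Mta1* (-1.004), *Mbd3* (-0.93) and *Gatad2b* (-0.91) had the largest falls. *Chd3*, an ATPase of the complex, rose from 23.6 ± 2.43 FPKM at Day 0 to 57.7 ± 4.72 at Day 1 and was at 41.0 ± 10.8 at Day 3 (SD, n = 2; log2 fold change 0.75 from Day 0 to Day 3, limma adjusted p = 0.0186). Its paralog *Chd4*, the most abundant of the list at Day 0 at 108 FPKM, did not pass (-0.25, limma adjusted p = 0.252, and 0.066 after median ratio scaling).

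Among the Sin3 and CoREST genes 7 of 15 fell and 1 rose (median -0.61). With the replicate block 8 fell, *Rcor2* being added, and after median ratio scaling 3 fell and 2 rose. *Sap30* (-1.95), *Ing1* (-1.04), *Suds3* (-1.001) and *Ing2* (-0.95) had the largest falls, and *Arid4b* rose (0.71). The call of *Ing2* (limma adjusted p = 0.0312) was lost after same sum, median ratio and quantile scaling (limma adjusted p = 0.0594, 0.0951 and 0.210).

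Of the 6 further class I and II genes tested, 1 fell (*Hdac6*, the tubulin deacetylase, at -1.19, limma adjusted p = 0.0322) and 0 rose (median -0.40). With the replicate block 2 fell, the other being *Hdac4*. With median ratio scaling 0 passed, and with quantile normalization 1 was higher (*Hdac5*, 0.86, limma adjusted p = 0.0477) and 0 lower. *Hdac9* did not pass the filter. Among the 7 sirtuins, deacetylases that use NAD, 2 rose and 1 fell (median 0.01). *Sirt2*, an abundant protein of myelin, went from 173 and 190 FPKM at Day 0 to 2532 and 2050 at Day 3 (log2 fold change 3.65, limma adjusted p = 8.02e-05). *Sirt7* rose by less (0.68) and *Sirt6* fell (-1.33).

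Of the other arginine methyltransferase genes, 2 of 7 tested fell and 0 rose (median -0.19). *Prmt1*, the main enzyme of asymmetric methylation, went from 157 ± 2.86 to 56.7 ± 9.60 FPKM (SD, n = 2; log2 fold change -1.47, limma adjusted p = 5.27e-04), and *Carm1* was the second (-0.86). After median ratio scaling 1 of the 7 was called lower, without *Carm1*. In the list of PRMT5 partners 3 of 4 fell (median -0.89), *Riok1* (-1.64), *Wdr77* and *Coprs* (-0.82), and *Clns1a* did not pass (-0.22, and 0.082 after median ratio scaling). The call of *Coprs* was lost after median ratio scaling (-0.51, limma adjusted p = 0.185), which left 2 of the 4. The other CHD genes (*Chd1*, *Chd1l*, *Chd2*, *Chd6* and *Chd9*) held 1 that fell, *Chd1* (-1.03), and 0 that rose (median -0.23), whereas after median ratio scaling *Chd9* was called higher as well (0.65, limma adjusted p = 0.0484). Histone acetyltransferases, which oppose the deacetylases, fell in 5 of 9 cases and rose in 1 (median -0.55), and after median ratio scaling in 1 and 1. *Kat2a* fell (-1.08) and its paralog *Kat2b* rose (1.60, from 7.69 to 25.5 FPKM, limma adjusted p = 9.19e-04). At an unadjusted p under 0.05 the counts of genes higher were also 0 for PRC2, BAF, the other deacetylases, the arginine methyltransferases and the other CHD genes. The share of all genes higher at this threshold is not given here, and 12% were called higher after adjustment. Most of these lists are short, so a count of 0 says little about them.

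**Figure D4:**
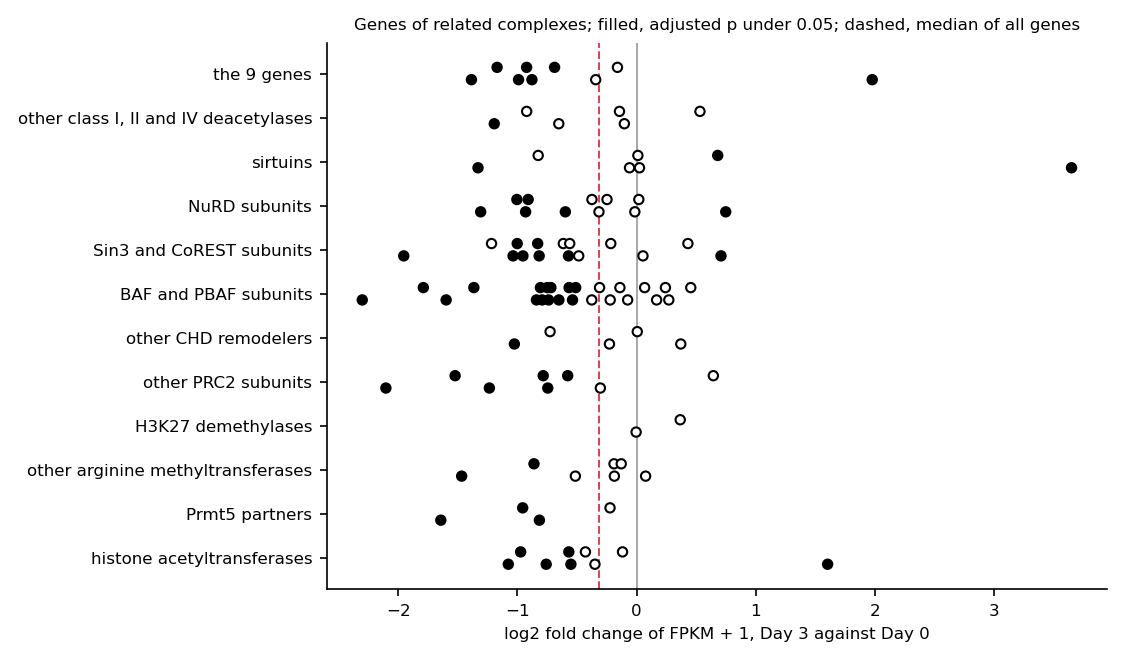
Log2 fold change of FPKM + 1 from Day 0 to Day 3 (horizontal axis), a point for each gene tested, for the 9 genes and for 11 lists of related genes (vertical axis). Filled points passed an adjusted p under 0.05 in limma and the dashed line is the median of all genes, -0.31. Most filled points lie to the left, with *Sirt2* (3.65), *Hdac11* (1.98) and *Kat2b* (1.60) as the rises over 1.

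The 2 genes with the widest range of day means on the log2 scale were *Hdac11* (1.98) and *Prmt5* (1.38). Among 6481 genes with a mean of at least 10 FPKM, those whose log2(FPKM + 1) correlated best with *Hdac11* over the 8 libraries were *Pdxdc1*, *Mtmr10*, *Fpgt*, *Cdip1* and *Arid4b* (Pearson r 0.97 for each). For *Prmt5* they were *Eif4b*, *Nubp1*, *Rpl4*, *Pros1* and *Ptprz1* (r 0.99 for each). *Ptprz1*, a surface protein of OPCs, fell from 261 to 42.1 FPKM, and *Eif4b* and *Rpl4*, genes of translation, from 122 to 47.1 and from 793 to 279. The libraries share the order of days, so high values of r are common, and they are given as a description.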

How the data were processed

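Stranded, paired-end mRNA libraries of the 4 days were read on a MiSeq system, and the authors used OmicSoft ArrayStudio to obtain the deposited FPKM per gene, 1 column a library. The genome build in the submitters' processing notes is mm10. The aligner, gene model and use of strand in counting are not given in the sources used here. DESeq2, which the methods name, needs counts and was not run. Sample titles gave the day and the replicate number.

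Tests used log2(FPKM + 1) in limma 3.58.1 (R 4.3.3, lmFit and eBayes with a trend), all 8 libraries, the day as a factor and Benjamini-Hochberg adjustment over the 12208 genes that reached 1 FPKM in 2 or more libraries. On this scale the change of low genes is understated. The call threshold was an adjusted p of 0.05. Replicate differences correlated between days at r = 0.16 to 0.29 over all 6 pairs of days, so the replicate number was taken to pair the libraries, and the block is given where it changes a call. Alternatives were a pseudocount of 0.1, no filter, a minimum of 10 FPKM, 3 scalings, the block, only the days compared, no trend, and each library left out. Values within each replicate series were added after seeing the data. The model was tested on simulated data, and no result of that test is given or relied on here. Depth was estimated from the steps of low FPKM of genes with 1 GENCODE M21 transcript, and fragment numbers rest on the longest coding transcript. They cover counting error only. Positions are from GENCODE M21 (GRCm38). Python 3.11.15 was used for these steps.

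The 9 genes and all lists were chosen with earlier results of these data known. Named beyond them are genes of the lists that passed the threshold, at most the 4 largest changes a list, the markers, *Ezh1*, *Smarca2* and *Wdr77*, and the 5 genes most correlated with the 2 widest-ranging members. Other genes were named after their values were seen. A list of related genes is not reported here.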

Additional observations from a re-analysis of the deposited data

How the results depend on the processing

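Of the 7 calls among the 9 genes from Day 0 to Day 3, that of *Hdac3* was lost without Day 0 replicate 2 (-0.87, adjusted p = 0.0502 from limma), and the other 6 held under all alternatives of the plan. The replicate block changed the calls of *Chd7* and *Prmt5* in the first step and no other call of the 9 genes. Causes were not tested. Signs turned for small changes only. From Day 0 to Day 1, *Hdac1* and *Chd8* came to 0.064 and 0.061 with libraries rescaled to the same sum, 0.060 and 0.057 with median ratios, and *Chd8* to 0.033 with quantiles. From Day 0 to Day 3, *Chd8* came to 0.14 with median ratios and 0.030 with quantiles. From Day 1 to Day 2, *Chd7* came to 0.080 with median ratios and 0.034 with quantiles. From Day 2 to Day 3, *Ezh2* came to 0.021 with the same sum, 0.030 with median ratios and 0.015 with quantiles. Leaving out 1 library at a time gave -0.21 to 0.16 for *Hdac1* and -0.088 to 0.041 for *Chd8* in the first step, -0.029 to 0.39 for *Hdac11* and -0.34 to 0.12 for *Chd7* in the next, and -0.018 to 0.14 for *Chd8* and -0.092 to 0.086 for *Ezh2* in the last.

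Counts of calls moved more. Over the 3 days, calls numbered 1460 higher and 3207 lower, and 2135 and 2047 with median ratios. Among any days, median ratios called 3738 genes and 4 members. The step from Day 0 to Day 1 gave 615 higher and 923 lower, with 406 higher and 0 members higher in a fit of only these days. Members lower were 2 with a minimum of 10 FPKM and 2 with quantiles (*Ezh2* and *Prmt5* in both), and 3 with the replicate block. The step from Day 1 to Day 2 gave 264 higher and 211 lower, and 154 and 93 without the filter, 82 and 39 without the trend and 0 and 0 with only the days compared. Genes lower were 103 with median ratios, 131 with quantiles and 436 with the replicate block. The step from Day 2 to Day 3 gave 30 higher and 6 lower, 4 higher with the pseudocount of 0.1, 119 and 44 with the replicate block, and 0 and 0 without the filter, without the trend or with only the days compared. Leaving out 1 library at a time gave 965 to 1440 higher, 1799 to 3108 lower and 5 to 6 members lower from Day 0 to Day 3. It gave 216 to 627 higher, 359 to 958 lower, 0 to 1 member higher and 0 to 1 lower in the first step, 11 to 221 and 0 to 224 in the next and 0 to 78 and 0 to 145 in the last. Among any days it gave 2100 to 3992 genes and 4 to 7 members. Estimated fragments on the longest coding transcript were fewest for *Hdac11*, 11 to 59 a library.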

Other observations

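Some chromatin genes were highest in the middle of the course, which the comparison of Day 3 with Day 0 does not show. These were chosen after their values were seen. *Kdm6b*, a demethylase that opposes EZH2, was at 28.0 and 26.1 FPKM at Day 0, then 48.5 and 40.7 at Day 1, 36.8 and 37.9 at Day 2 and 28.7 and 25.3 at Day 3. Both Day 1 libraries were above all others, and the Day 3 values overlapped those of Day 0. A difference among the days passed limma's F test (adjusted p = 0.0164), while the change from Day 0 to Day 3 did not (adjusted p = 0.986 from limma). *Prmt2*, an arginine methyltransferase gene, was at 23.2 and 25.0 FPKM at Day 0, then 37.4 and 45.8 at Day 1, 26.4 and 25.3 at Day 2 and 25.5 and 17.3 at Day 3 (F test, adjusted p = 0.0285 from limma). *Chd3* was at 25.4 and 21.9 FPKM at Day 0, then 61.1 and 54.4 at Day 1, 60.8 and 52.5 at Day 2 and 48.6 and 33.3 at Day 3 (F test, adjusted p = 0.00481 from limma).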
